A study of Mus musculus with 10 samples.

Results

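Of the 38924 gene rows counted in every sample, 10 encode receptors of the vascular endothelial growth factor (VEGF) and platelet-derived growth factor (PDGF) families, the related receptor Kit, or their ligands. They were picked by gene symbol: the receptors Kdr, Flt1, Flt4, Pdgfra, Pdgfrb and Kit and the ligands Vegfa, Vegfc, Pdgfa and Pdgfc. The RNA came from mouse embryonic stem cells (mESCs) differentiated for 5 days and then sorted. Every sample came from 1 line, Foxa2-hCD4, whose Foxa2 locus also drives a truncated human CD4 (hCD4), a surface tag by which living Foxa2-expressing cells can be sorted. Foxa2+ cardiac mesoderm (CM, 3 samples) was sorted as Kdr+ Pdgfra+ hCD4+ and Foxa2- CM (3 samples) as Kdr+ Pdgfra+ hCD4-. The Flk1+ high cells (2 samples), named after the older name of Kdr and called haematopoietic mesoderm by the study, were Kdr+ Pdgfra- hCD4-. The study's figure legend names their gate Kdr high, so they were sorted for a high level of Kdr. These 3 populations were made in the same kind of culture, with Activin A at 8 ng/ml, VEGF at 5 ng/ml and BMP4 at 1 ng/ml. Endoderm (2 samples) was sorted as Kdr- Pdgfra- hCD4+ from cultures given Activin A at 75 ng/ml, for which no VEGF is named. For every comparison with endoderm, cell type and culture medium therefore cannot be told apart.

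These receptors are tyrosine kinases on the cell surface that pair up when a ligand binds. Kdr (VEGF receptor 2, Flk1) carries most of the growth signal of VEGF-A, Flt1 (VEGF receptor 1) binds VEGF-A tightly but signals weakly and is also made as a soluble decoy, and Flt4 (VEGF receptor 3) is the receptor for VEGF-C. Pdgfra and Pdgfrb bind the PDGFs, and Kit binds stem cell factor. In the early embryo Kdr marks mesoderm with blood, vessel and heart potential, and cells with both Kdr and Pdgfra include the cardiac mesoderm.

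Kdr and Pdgfra were part of the sort gates. Their levels across the gates are given as a description with no test, and they were tested only between Foxa2+ CM and Foxa2- CM, which share a gate for both. Each sample had from 10926284 to 17470126 counts on genes. Levels are in CPM, counts scaled to the size of the TMM-normalized library, and levels are compared between genes only as CPM per kilobase of exonic sequence (CPM per kb). Summed markers were highest in the group they name, though some single genes did not follow. The summed level of 8 endoderm markers was 1378 and 1496 CPM in endoderm and between 184 and 202 CPM in the other samples. That of 10 haemato-endothelial markers was 1398 and 1884 CPM in Flk1+ high cells. Of the endoderm list, Hhex was higher in Flk1+ high cells (114 and 130 CPM) than in endoderm (63.9 and 97.9 CPM). Cxcr4 in endoderm (55.9 and 110 CPM) overlapped CM. Of the haemato-endothelial list, Etv2 in Flk1+ high cells (87.9 and 92.3 CPM) was not above CM. The endoderm list includes Foxa2, at 185 and 182 CPM in endoderm, whose locus drives the hCD4 used in the sort. The 8 cardiac mesoderm markers summed to between 509.6 and 697 CPM in the CM samples and to at most 338 CPM elsewhere. The CM samples numbered 3 stood apart from the others of their group: their haemato-endothelial marker sums were 428 (Foxa2+ CM) and 466 CPM (Foxa2- CM), against between 245 and 344 CPM in the other 4 CM samples. Foxa2 itself was at 20.01, 16.01 and 3.49 CPM in Foxa2+ CM replicates 1, 2 and 3, and between 0.872 and 2.54 CPM in Foxa2- CM. Since the labels do not say that replicates are separate cultures, p-values measure the spread between these samples, which may be technical.

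Of the 10 genes, 5 lie on mouse chromosome 5 (mm10), and Pdgfra (75152292 to 75198215, plus strand), Kit (75574916 to 75656722, plus strand) and Kdr (75932827 to 75978458, minus strand) are neighbours there within 826.2 kb. Flt1 lies on the same chromosome from 147561604 to 147726011 on the minus strand. The 250 bases before the RefSeq start (GRCm38.p6) of Kdr and Flt1 are shown because their levels went in opposite directions between endoderm and CM. Capitals mark matches, on either strand, to CNGGAA, a short core bound by ETS factors.

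Kdr, chr5:75978456-75978705, minus strand: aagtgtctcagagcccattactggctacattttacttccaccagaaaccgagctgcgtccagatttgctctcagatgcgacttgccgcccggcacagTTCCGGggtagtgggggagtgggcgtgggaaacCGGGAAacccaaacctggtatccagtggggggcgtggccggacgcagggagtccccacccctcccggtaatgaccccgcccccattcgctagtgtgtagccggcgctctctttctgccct
Flt1, chr5:147726012-147726261, minus strand: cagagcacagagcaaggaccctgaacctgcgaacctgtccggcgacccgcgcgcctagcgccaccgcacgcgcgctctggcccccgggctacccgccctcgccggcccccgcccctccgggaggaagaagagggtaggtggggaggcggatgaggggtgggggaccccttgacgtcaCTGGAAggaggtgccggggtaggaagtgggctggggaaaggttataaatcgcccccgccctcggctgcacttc

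The Kdr window held 2 such matches, at -153 and -120 from the start, and the Flt1 window held 1, at -73. A match is common, present in 54.2% of 32851 promoter windows of this length, and 6 of the 9 windows examined for these genes held at least 1. NGATAA, a core bound by GATA factors and present in 22.5% of windows, had a match in the Vegfa window and in no other of the 9. The forkhead core TNTTTAC, present in 10.9% of windows, had no match in the 9. The hypoxia response core, ACGTG, is present in 16.6% of windows and had none either. These matches describe letters, not binding.

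Among the VEGF receptors, Kdr was low in endoderm only, while Flt1 was high in both endoderm and Flk1+ high cells and low in CM. Kdr was at 353, 363 and 424 CPM in Foxa2+ CM, at 391, 439.8 and 432 CPM in Foxa2- CM, at 554 and 592 CPM in Flk1+ high cells, and at 6.24 and 9.94 CPM in endoderm, which was gated as Kdr-. Flt1 was at 251 and 459 CPM in endoderm and 403 and 222 CPM in Flk1+ high cells. In CM it was at 8.62, 14.1 and 25.8 CPM (Foxa2+) and 11.4, 18.2 and 50.8 CPM (Foxa2-), with the highest value in replicate 3 of each group. Every endoderm sample was thus above every CM sample for Flt1, and the endoderm range overlapped that of Flk1+ high cells. Flt4 was at 349 and 218 CPM in Flk1+ high cells and at most 36.9 CPM elsewhere. It stood at 11.98, 15.8 and 27.6 CPM in Foxa2+ CM, at 12.4, 10.5 and 36.9 CPM in Foxa2- CM, and at 12.2 and 11.5 CPM in endoderm. In CM both Flt1 and Flt4 were highest in the samples numbered 3, those with the higher haemato-endothelial marker sums; the part of those cells in these levels was not tested.

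**Figure D1:**
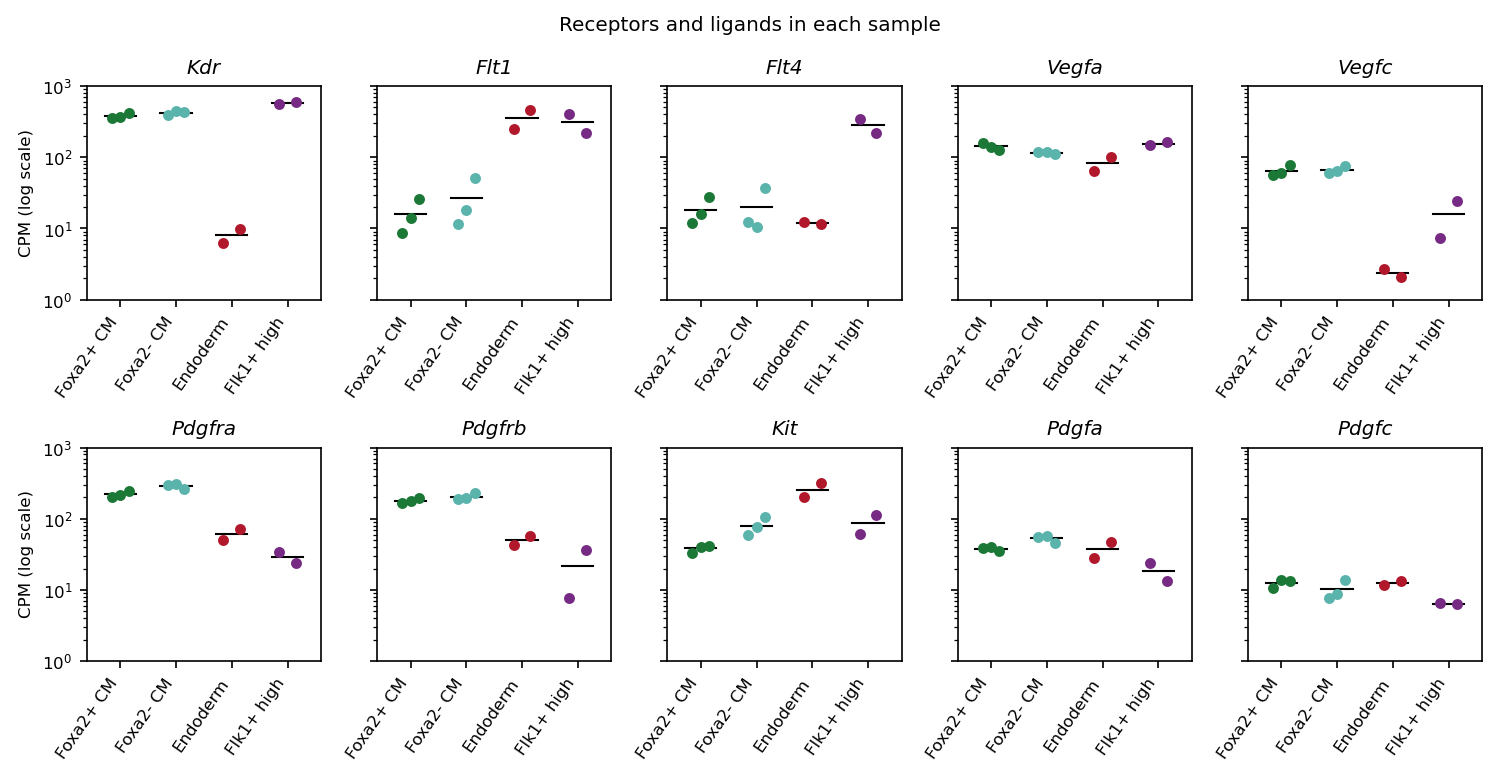
CPM of each gene in each sample on a log axis, with points for samples and a black line for the mean of each group (n = 3 for the CM groups and 2 for endoderm and Flk1+ high cells). Flt1 sits at 251 and 459 CPM in endoderm, where Kdr is below 10 CPM (highest 9.94), and Flt4 is high in Flk1+ high cells.

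The receptor mix followed from these levels. Per kb, Kdr made up 92.7% ± 2.53 (SD, n = 3) of the summed VEGF receptor reads in Foxa2+ CM and 91.7% ± 5.54 (SD, n = 3) in Foxa2- CM. In endoderm Flt1 made up 91.3% ± 2.55 (SD, n = 2) and Kdr 3.17% ± 0.221 (SD, n = 2). In Flk1+ high cells the receptors were mixed, with 53.2% ± 10.3 for Kdr, 28.1% ± 5.18 for Flt4 and 18.7% ± 5.07 for Flt1 (SD, n = 2). The Flt1 to Kdr ratio per kb was 26.9 and 30.9 in the endoderm samples, 0.486 and 0.251 in Flk1+ high cells, and between 0.0163 and 0.0788 in the 6 CM samples. Because Kdr was in the gate, these shares are a description. They also depend on the length used: Flt1 has 13504 exonic bases and 6895 in its longest transcript, and Flt4 has 8232 and 6255. Flt4 and Flt1 overlapped per kb in the Flk1+ high samples, so their order there is not settled. With the longest transcript as length the mean Flt1 to Kdr ratio was 37.1 in endoderm and 0.473 in Flk1+ high cells. Gene-level counts do not separate soluble from membrane Flt1.

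**Figure D2:**
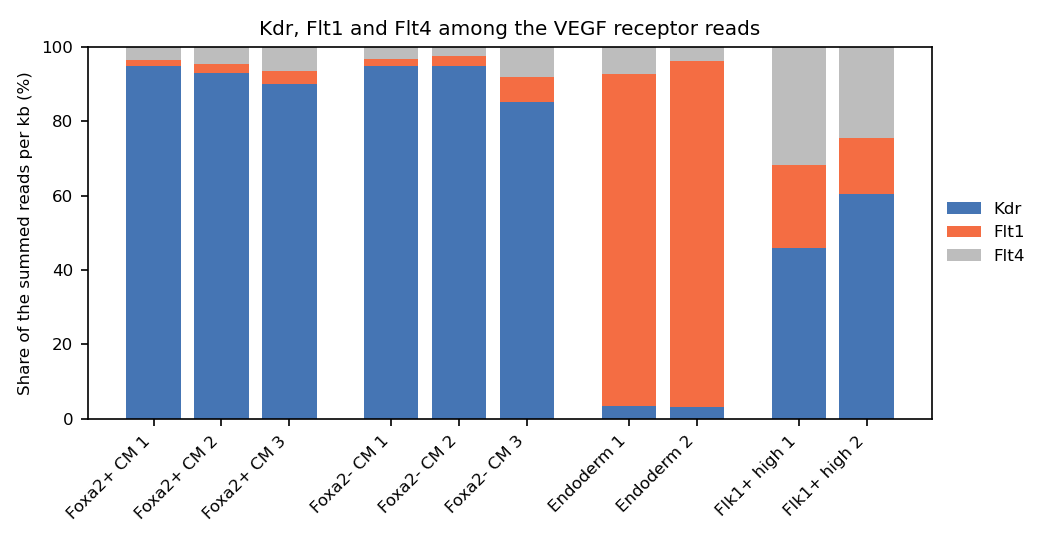
Share of Kdr (blue), Flt1 (orange) and Flt4 (grey) in their summed CPM per kb, in percent, 1 bar for each sample. Kdr fills at least 85.3% of every CM bar, Flt1 fills 89.5% and 93.2% of the endoderm bars, and the Flk1+ high bars hold all 3 receptors.

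The endoderm samples held little other haemato-endothelial RNA beside their Flt1. The 10 haemato-endothelial markers summed to 22.8 and 35.8 CPM in endoderm, the lowest of the 4 groups, with Tie1 at 0 in both samples. The endothelial cadherin Cdh5 was at 0.652 and 2.34 CPM there, against 158 and 275 CPM in Flk1+ high cells, and the blood and vessel factor Tal1 was at 0.838 and 1.00 CPM against 328 and 339 CPM. A count of 0 allows up to 0.275 CPM in endoderm replicate 1 and 0.244 CPM in replicate 2 (3 counts, counting error only). Pluripotent and germ cell markers were also high in endoderm, with 7 genes summing to 402 and 412 CPM against 37.3 to 159 CPM elsewhere. Nanog, Pou5f1 and Sox2 carried that sum and were called higher in endoderm than in each CM group, while Prdm14 and Zfp42 were called lower, with Prdm14 at 0.0931 and 0.167 CPM in endoderm. In addition, 4 neural markers summed to 13.6 and 12.7 CPM against at most 2.38 CPM elsewhere. The part of these lists in the Flt1 and Kit levels was not tested. In bulk samples such as these, fewer cells of a type and less RNA per cell cannot be told apart.

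Of the VEGF ligands, Vegfa, the main ligand of Kdr and Flt1, was made in all 4 groups, and Vegfc, the Flt4 ligand, mostly in CM. Vegfa was at 161, 141 and 128 CPM in Foxa2+ CM, at 117, 119.9 and 111 CPM in Foxa2- CM, at 64.8 and 102 CPM in endoderm, and at 147 and 162 CPM in Flk1+ high cells. Vegfc was at 56.1, 59.9 and 78.4 CPM in Foxa2+ CM and 60.9, 64.4 and 74.2 CPM in Foxa2- CM. It stood at 7.27 and 24.6 CPM in Flk1+ high cells and at 2.70 and 2.09 CPM in endoderm, where 29 and 25 counts lie behind these values. All 6 CM samples were above all other samples for Vegfc. Flt4 and its ligand were therefore highest in different sorted populations, Flt4 in Flk1+ high cells and Vegfc in CM. Per kb, Vegfa and Vegfc were close in CM (ratio of Vegfa to Vegfc 1.31 ± 0.354 in Foxa2+ CM and 1.00 ± 0.133 in Foxa2- CM, SD, n = 3 each), whereas in endoderm the ratio was 13.7 and 27.9. The 2 Flk1+ high samples differed from each other, with ratios of 11.5 and 3.75. With the longest transcript as length, the mean ratio in CM was 1.62 (Foxa2+) and 1.25 (Foxa2-).

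Both PDGF receptors were highest in CM. Pdgfra was at 201, 214 and 246 CPM in Foxa2+ CM, at 293, 306 and 259 CPM in Foxa2- CM, at 49.9 and 71.5 CPM in endoderm, and at 34.3 and 23.8 CPM in Flk1+ high cells. Pdgfrb (chromosome 18, 61045150 to 61085061, plus strand), which was not in any gate, was at 165, 179.8 and 194 CPM in Foxa2+ CM and 187, 198 and 229 CPM in Foxa2- CM. It was at 42.8 and 56.8 CPM in endoderm and at 7.71 and 36.3 CPM in Flk1+ high cells, so that the latter samples differed from each other by more than the higher of them differed from the nearest endoderm sample. The CM samples of both kinds were above all endoderm and Flk1+ high samples for both receptors. Per kb, Pdgfrb made up 59.9% ± 0.797 of PDGF receptor reads in Foxa2+ CM and 56.7% ± 4.52 in Foxa2- CM (SD, n = 3 each). In endoderm it made up 60.2% ± 1.31 (SD, n = 2), and in the Flk1+ high samples 29.2% and 73.6%. The order of the receptors in Foxa2- CM depends on the length used: the mean ratio of Pdgfra to Pdgfrb there was 0.772 with all exonic bases and 1.12 with the longest transcript. In Foxa2+ CM it was 0.670 and 0.973.

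Kit, the receptor of stem cell factor, was highest in endoderm, at 199.7 and 313 CPM. It was at 33.2, 40.3 and 42.1 CPM in Foxa2+ CM, at 58.3, 76.1 and 106 CPM in Foxa2- CM, and at 60.7 and 112 CPM in Flk1+ high cells. Every Foxa2+ CM sample was below every other sample, and Foxa2- CM overlapped Flk1+ high cells. In endoderm Kit and Flt1 were the leading receptors of the 6, at 28.8 ± 9.0 and 26.3 ± 10.9 CPM per kb (SD, n = 2), which overlap. Kdr led in the other 3 groups, with 42.1 ± 4.22 and 46.6 ± 2.88 CPM per kb in Foxa2+ and Foxa2- CM (SD, n = 3) and 63.5 ± 3.00 in Flk1+ high cells (SD, n = 2). Because the cells were sorted by Kdr and Pdgfra, this order of receptors is a description.

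The neighbouring genes Pdgfra, Kit and Kdr each had their highest level in a different population. Kdr and Pdgfra were gated, so this is a description. Of the summed reads per kb of these 3 genes, Kit held 80.4% ± 0.842 in endoderm (SD, n = 2) and Kdr 83.6% ± 2.97 in Flk1+ high cells (SD, n = 2). In Foxa2+ CM the shares were 61.5% ± 0.680 for Kdr, 32.1% ± 0.235 for Pdgfra and 6.32% ± 0.473 for Kit (SD, n = 3). In Foxa2- CM they were 55.4% ± 0.576 for Kdr, 34.0% ± 3.46 for Pdgfra and 10.6% ± 2.93 for Kit (SD, n = 3). The gap between Pdgfra and Kit is 376.7 kb and that between Kit and Kdr 276.1 kb. Of 10 flanking genes 8 were tested. In Foxa2+ CM against Foxa2- CM edgeR called 0 of them, with 1 (Srd5a3) at an unadjusted p under 0.05, and DESeq2 also called 0. Over all genes edgeR called 3.81% higher and 2.66% lower, so 0 of 8 does not set these genes apart. In endoderm against Foxa2+ CM, Fip1l1, Chic2 and Tmem165 rose by 0.19, 0.31 and 0.29 on the log2 scale and the circadian factor Clock fell by 0.86 (edgeR, adjusted p = 0.0246, 0.0111, 0.0115 and 0.000485), where 18.3% of all genes were called higher and 16.7% lower. Against Foxa2- CM, Clock (-0.92, adjusted p = 0.000407) was the 1 flanking gene called, where 16.1% of all genes were called higher and 14.0% lower. Fip1l1, Chic2 and Tmem165 had 0.16, 0.19 and 0.15 there (adjusted p = 0.0592, 0.0919 and 0.143). In Flk1+ high cells Fip1l1 was the 1 flanking gene called, higher than in Foxa2+ CM and Foxa2- CM (11.6% and 11.3% of all genes were higher). In endoderm against Flk1+ high cells Chic2 was called higher and Clock lower (16.4% and 16.2% of all genes were). Clock was at 46.7 and 43.7 CPM in endoderm and between 72.2 and 109 CPM in the other samples, while Exoc1, on the far side of Clock, was between 89.7 and 97.9 CPM in all 10 samples.

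**Figure D3:**
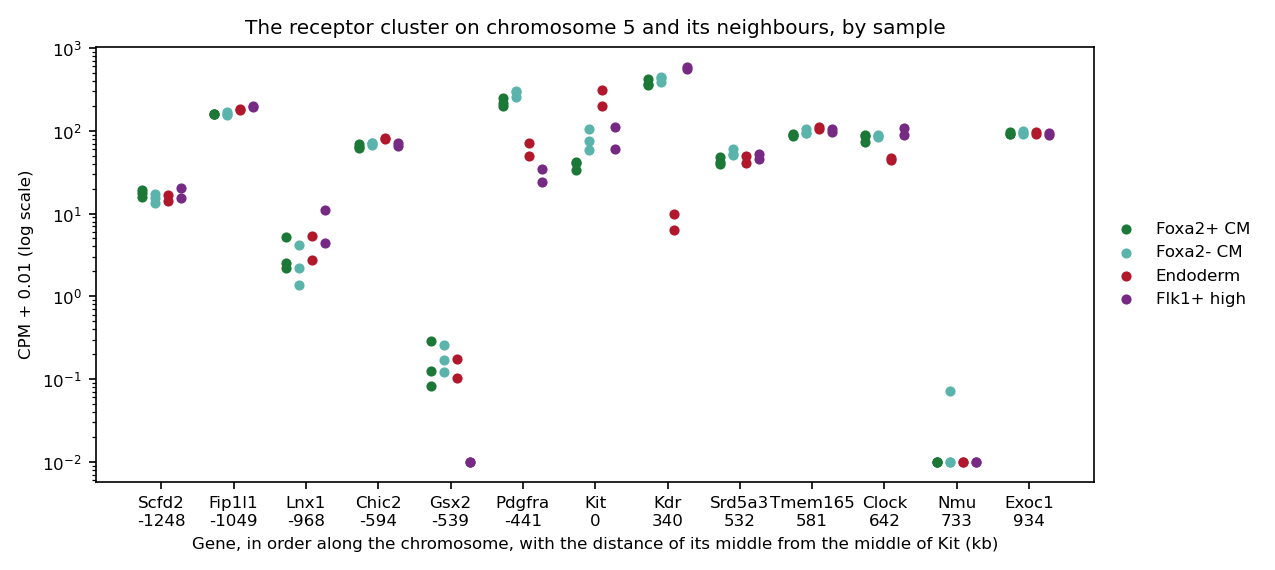
CPM plus 0.01 (log axis) of Pdgfra, Kit, Kdr and 10 flanking genes in their order on chromosome 5, with 1 point for each sample, coloured by group. The number under each name is the distance in kb between the middle of that gene and the middle of Kit. The 3 receptors spread widely between groups, and Gsx2 and Nmu are at or near 0. Among the other flanking genes the points of Exoc1 (89.7 to 97.9 CPM) lie close together. Those of Clock (43.7 to 109 CPM) and of the weakly expressed Lnx1 spread more.

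The PDGF ligands Pdgfa and Pdgfc were lowest in Flk1+ high cells. Pdgfa was at 38.8, 39.7 and 35.6 CPM in Foxa2+ CM, at 55.5, 57.7 and 45.3 CPM in Foxa2- CM, at 28.02 and 46.7 CPM in endoderm, and at 23.9 and 13.5 CPM in Flk1+ high cells. Pdgfc was the lowest of the 4 member ligands per kb in 3 of the groups and the third in endoderm, where it was above Vegfc. It was at 10.5, 13.8 and 13.2 CPM in Foxa2+ CM, at 7.67, 8.80 and 14.04 CPM in Foxa2- CM, at 11.7 and 13.4 CPM in endoderm, and at 6.52 and 6.29 CPM in Flk1+ high cells. Neither Flk1+ high sample reached the lowest sample of the other groups for either ligand. Other annotated genes overlap Pdgfa (6330403L08Rik) and Pdgfc (Gm16000) on the opposite strand, and the library kit does not mark strand. Reads that could not be given to a single gene were set apart as ambiguous, between 316556 and 511962 per sample. Reads on stretches shared with 6330403L08Rik or Gm16000 may thus be missing from the ligand counts, and how many was not tested.

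Between Foxa2+ CM and Foxa2- CM, Kit and Pdgfa were lower in Foxa2+ CM and no gene of the 10 was called higher. A gene was called where edgeR's quasi-likelihood p, after Benjamini-Hochberg adjustment over all 15284 genes tested, was under 0.05. Among all these genes 3.81% were called higher and 2.66% lower, against 0 and 2 of the 10. Of the 10, 1 (Vegfa) was higher at an unadjusted p under 0.05 in edgeR, and the same gene was called higher with DESeq2. Their median log2 fold change was -0.17, and that of all genes -0.0014. Kit, with means of 38.5 ± 4.73 CPM (Foxa2+) and 80.2 ± 24.2 CPM (Foxa2-, SD, n = 3 each), fell by 1.06 on the log2 scale (SE 0.21, adjusted p = 0.0261), and all Foxa2+ CM samples were below all Foxa2- CM samples. Pdgfa, at 38.0 ± 2.15 and 52.8 ± 6.59 CPM (SD, n = 3), fell by 0.47 (SE 0.10, adjusted p = 0.0327), again with no overlap. Both calls were lost in some leave-outs. Kit was not called without Foxa2+ CM replicate 1 (-0.97, adjusted p = 0.101), Foxa2+ CM replicate 2 (-1.10, adjusted p = 0.107) or Foxa2- CM replicate 2 (-1.10, adjusted p = 0.100), and was called without each of the other 3 samples. Pdgfa lost its call without any of 5 of the 6 CM samples (adjusted p between 0.0775 and 0.135) and kept it only without Foxa2- CM replicate 3. With all 10 samples in 1 model neither was called (adjusted p = 0.105 for Kit and 0.408 for Pdgfa). Marker lists differed between these groups as well: pluripotent and germ cell markers summed to 79.3 to 91.8 CPM in Foxa2+ CM and 114 to 159 CPM in Foxa2- CM, and Nanog, Prdm14 and Sox2 were called lower (median of the 6 tested -0.82). Of 8 cardiac mesoderm markers 2 were called higher and 3 lower, and of 5 paraxial mesoderm markers tested 2 were called lower. Their part in the Kit and Pdgfa levels was not tested.

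The gated receptors and Vegfa lay near the threshold or within the replicate spread in this comparison. Pdgfra had a log2 fold change of -0.37 (SE 0.09, adjusted p = 0.0524), with every Foxa2+ CM sample below every Foxa2- CM sample. Without the CM samples numbered 3 it was -0.51 (adjusted p = 9.4e-05), and with DESeq2 -0.38 (adjusted p = 0.00356). Vegfa had 0.31 (SE 0.09, adjusted p = 0.0840) and 0.36 without those samples (adjusted p = 0.00187), and was called with DESeq2 (adjusted p = 0.0301). Kdr had -0.14 (95% interval -0.35 to 0.06, adjusted p = 0.466). For Flt1 the interval was wide, -0.74 with -2.07 to 0.60 (adjusted p = 0.606), and the value was 0.16 without Foxa2- CM replicate 3. Each Foxa2+ CM sample was nevertheless below the Foxa2- CM sample of the same number for Flt1. With the replicate number as a block Flt1, Pdgfra and Vegfa were called, but the numbers could not be shown to pair the samples. Flt4 had -0.12 (-1.28 to 1.04), and 0.71 without Foxa2- CM replicate 3. Pdgfrb had -0.19 (-0.41 to 0.03), Vegfc -0.04 (-0.35 to 0.28) and Pdgfc 0.29 (-0.27 to 0.86). Without both CM samples numbered 3, Pdgfc was 0.59 higher (adjusted p = 0.0194).

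**Figure D4:**
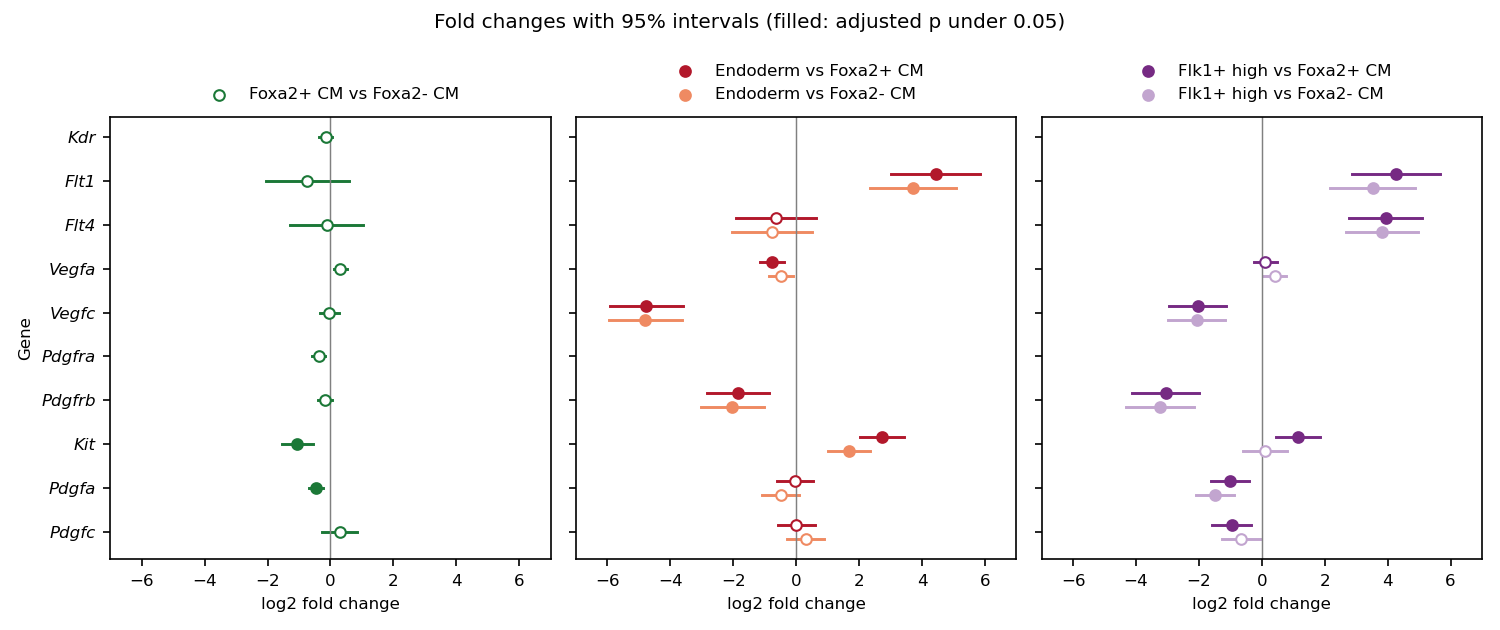
Log2 fold changes (points) with their 95% intervals (lines) for the 10 genes in Foxa2+ CM against Foxa2- CM (left), endoderm against each CM group (middle) and Flk1+ high cells against each CM group (right). Filled points have an adjusted p under 0.05, and Kdr and Pdgfra are shown only where they were tested. Flt1 is higher in both endoderm and Flk1+ high cells, among these panels Flt4 passes the test only in Flk1+ high cells, and Vegfc and Pdgfrb are lower in both.

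In endoderm against CM, Flt1 and Kit were higher and Vegfc and Pdgfrb lower, whichever CM group was compared. The 2 comparisons share the endoderm samples. Of the 8 genes outside the gates, 2 were higher and 3 lower than in Foxa2+ CM, where 18.3% and 16.7% of all 16180 genes tested were called, and 2 were higher and 2 lower than in Foxa2- CM, where 16.1% and 14.0% were. The median over the 8 was -0.34 and -0.48, against 0.0072 and 0.0050 over all genes. Flt1 rose by 4.44 on the log2 scale (SE 0.63, adjusted p = 0.000629), a 21.7-fold difference, over Foxa2+ CM and by 3.71 (SE 0.60, adjusted p = 0.00164) over Foxa2- CM. Kit rose by 2.73 (SE 0.31, adjusted p = 0.000184) and 1.68 (SE 0.30, adjusted p = 0.00275). Vegfc fell by 4.76 (SE 0.51, adjusted p = 0.000141) and 4.80 (SE 0.51, adjusted p = 0.000156), a 27.1-fold and a 27.8-fold difference. Pdgfrb fell by 1.85 (SE 0.44, adjusted p = 0.0101) and 2.04 (SE 0.45, adjusted p = 0.00778). Without endoderm replicate 1, Pdgfrb was no longer called (adjusted p = 0.0873 and 0.0743). Vegfa fell by 0.78 against Foxa2+ CM (SE 0.17, adjusted p = 0.00621). Against Foxa2- CM its value was -0.47 (SE 0.17, adjusted p = 0.0608), and it was called there with DESeq2 (adjusted p = 0.0268), with no expression filter (0.0249) and without endoderm replicate 2 (-0.85, adjusted p = 0.00265). The calls of Flt1, Kit and Vegfc held without each replicate in turn. Flt4, Pdgfa and Pdgfc were not called against either CM group.

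In Flk1+ high cells against CM, Flt4 and Flt1 were higher and Pdgfrb, Vegfc and Pdgfa lower. Of the 8 genes, 3 were higher and 4 lower than in Foxa2+ CM (11.6% and 11.2% of all genes), and 2 were higher and 3 lower than in Foxa2- CM (11.3% and 10.3%). The medians were -0.43 and -0.28, against 0.028 and 0.018 over all genes. Flt4 rose by 3.93 (SE 0.52, adjusted p = 0.00102) over Foxa2+ CM and by 3.82 (SE 0.51, adjusted p = 0.00117) over Foxa2- CM. Flt1 rose by 4.25 (SE 0.62, adjusted p = 0.00161) and 3.53 (SE 0.60, adjusted p = 0.00348). Pdgfrb fell by 3.06 (SE 0.48, adjusted p = 0.00225) and 3.25 (SE 0.48, adjusted p = 0.00180). Vegfc fell by 2.04 (SE 0.41, adjusted p = 0.00701) and 2.07 (SE 0.41, adjusted p = 0.00668). Pdgfa fell by 1.02 (SE 0.27, adjusted p = 0.0231) and 1.49 (SE 0.27, adjusted p = 0.00459). Pdgfc fell by 0.96 against Foxa2+ CM (SE 0.27, adjusted p = 0.0309), and was -0.67 against Foxa2- CM (adjusted p = 0.111). Kit rose by 1.16 over Foxa2+ CM (SE 0.31, adjusted p = 0.0249) and was 0.10 against Foxa2- CM (95% interval -0.59 to 0.79, adjusted p = 0.863).

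Several of the calls against Foxa2+ CM rested on single samples. Kit was not called without Foxa2+ CM replicate 1 (adjusted p = 0.100), Foxa2+ CM replicate 2 (0.0656) or Flk1+ high replicate 2 (0.62, adjusted p = 0.245). Pdgfa was not called without the same samples (0.0522, 0.0654 and 0.0893 in that order). Pdgfc was not called without Foxa2+ CM replicate 2 or 3 or either Flk1+ high sample (adjusted p between 0.0731 and 0.107). The number of genes called among the 8 was 4 without Foxa2+ CM replicate 2 and 4 without Flk1+ high replicate 2. The calls of Flt1, Flt4, Pdgfrb and Vegfc against both CM groups, and of Pdgfa against Foxa2- CM, held without each replicate in turn.

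Set directly against each other, endoderm had more Kit and less Flt4, Vegfa and Vegfc than Flk1+ high cells, while Flt1 was not called different. Of the 8 genes, 3 were higher and 3 lower in endoderm, where 16.4% and 16.2% of all genes were called, with a median of 0.58 against -0.0042 over all genes. Flt1 had a log2 fold change of 0.18 with a 95% interval from -1.21 to 1.58 (adjusted p = 0.851), so a 2-fold difference in either direction lies within the interval. Flt4 fell by 4.58 (SE 0.64, adjusted p = 0.000667), a 23.9-fold difference. Vegfc fell by 2.72 (SE 0.53, adjusted p = 0.00371) and Vegfa by 0.88 (SE 0.18, adjusted p = 0.00497). Kit rose by 1.58 (SE 0.34, adjusted p = 0.00629), Pdgfa by 0.99 (SE 0.29, adjusted p = 0.0248) and Pdgfc by 0.97 (SE 0.29, adjusted p = 0.03). Pdgfrb had 1.21 (SE 0.49, adjusted p = 0.0911), and 2.69 without Flk1+ high replicate 2 (adjusted p = 0.000132). Kit was not called without endoderm replicate 2 (adjusted p = 0.0576), Pdgfa without endoderm replicate 2 (0.185) or Flk1+ high replicate 2 (0.106), and Pdgfc without any of the 4 samples (0.0728 to 0.138). With only these 2 groups in the fit, 2 of the 8 were called, and Vegfa (adjusted p = 0.0556), Vegfc (0.0539), Pdgfa (0.154) and Pdgfc (0.0796) were not.

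The other genes of these pathways were taken from a list of 43, of which 42 matched. The co-receptors of VEGF receptors were low in endoderm. Nrp2 was at 182, 214 and 259.5 CPM in Foxa2+ CM, at 261, 298 and 314 CPM in Foxa2- CM, at 528 and 413 CPM in Flk1+ high cells, and at 8.75 and 10.4 CPM in endoderm. In endoderm Nrp2 fell by 4.92 on the log2 scale against Foxa2- CM (SE 0.21, adjusted p = 1.44e-06) and by 5.62 against Flk1+ high cells (SE 0.22, adjusted p = 1.1e-06). Nrp1 was at 34.2 and 111 CPM in endoderm, below every other sample, with means of 374 ± 11.98 CPM for Foxa2+ CM, 338 ± 35.9 CPM for Foxa2- CM (SD, n = 3 each) and 269 ± 27.5 CPM for Flk1+ high cells (SD, n = 2). Nrp1 fell in endoderm by 2.37 on the log2 scale against Foxa2+ CM (SE 0.38, adjusted p = 0.00120). Endoderm thus held Flt1 at the range of Flk1+ high cells with low Kdr, Nrp1 and Nrp2. The phosphatase Ptprb, known from endothelium, was at 161 and 148 CPM in Flk1+ high cells, between 11.1 and 37.8 CPM in CM, and at 0.558 and 1.34 CPM in endoderm.

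Between the CM groups 38 pathway genes were tested, of which 2 were higher and 2 lower in Foxa2+ CM, where 3.81% and 2.66% of all genes tested were. Pik3r1, a regulatory subunit of PI3 kinase, rose by 0.72 on the log2 scale (SE 0.08, adjusted p = 0.00360), and Furin, a protease that cleaves growth factor precursors, by 0.33 (SE 0.07, adjusted p = 0.0389). Egln3, an oxygen-sensing prolyl hydroxylase, fell by 0.60 (SE 0.09, adjusted p = 0.0107), and the phospholipase Plcg1, which acts downstream of VEGF and PDGF receptors, by 0.27 (SE 0.06, adjusted p = 0.0373). Pik3r1 was at 199.95, 217 and 189 CPM in Foxa2+ CM and 115, 122 and 132 CPM in Foxa2- CM, with no overlap. The median over the 38 was 0.0075, and that over all genes -0.0014.

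In the comparisons with endoderm and Flk1+ high cells 39 pathway genes were tested. In endoderm, 5 were higher and 13 lower than in Foxa2+ CM (over all genes tested, 18.3% and 16.7% were). In the same cells 5 were higher and 10 lower than in Foxa2- CM (16.1% and 14.0%), and 5 were higher and 15 lower than in Flk1+ high cells (16.4% and 16.2%). In Flk1+ high cells, 11 were higher and 8 lower than in Foxa2+ CM (over all genes 11.6% and 11.2%), and 9 were higher and 7 lower than in Foxa2- CM (11.3% and 10.3%). The medians of these 5 comparisons lay between -0.14 and 0.067, and those over all genes between -0.0042 and 0.028. The proprotein convertase Pcsk5, a protease of the same family as Furin, was the gene that fell most in endoderm against each CM group, by 6.09 against Foxa2+ CM (SE 0.70, adjusted p = 0.000204) and 5.45 against Foxa2- CM (SE 0.69, adjusted p = 0.000424). It was at 2.14 and 3.59 CPM in endoderm and between 106 and 226 CPM in CM. Adamts3, which takes part in VEGF-C activation, was at 27.6 and 20.5 CPM in endoderm and between 134 and 187 CPM in CM. In Flk1+ high cells Adamts3 was at 86.9 and 111 CPM, between endoderm and CM. The ligand-processing genes did not move together: against Foxa2- CM, 2 of 6 (Pcsk5 and Adamts3) were called lower in Flk1+ high cells and 1 (Furin) higher. The phospholipase Plcg2 rose by 2.30 in endoderm over Foxa2+ CM (SE 0.21, adjusted p = 5.21e-05) and by 1.90 over Foxa2- CM (SE 0.21, adjusted p = 0.000169). The adaptor Shb rose by 1.23 over Foxa2+ CM (SE 0.18, adjusted p = 0.000745) and by 2.58 over Flk1+ high cells (SE 0.21, adjusted p = 4.19e-05).

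In Flk1+ high cells the gene that rose most was Ptprb, by 2.55 over Foxa2+ CM (SE 0.39, adjusted p = 0.00197) and 3.22 over Foxa2- CM (SE 0.40, adjusted p = 0.000816), and in endoderm it fell by 7.31 against Flk1+ high cells (SE 0.64, adjusted p = 5.36e-05). Pdgfb, a ligand of Pdgfrb, rose by 1.65 over Foxa2+ CM (SE 0.41, adjusted p = 0.0190), to 55.5 and 54.2 CPM from 9.86, 15.3 and 27.0 CPM. Pdgfb and Pdgfrb thus stood in opposite order between Flk1+ high cells and Foxa2+ CM. Endoderm did not share this, as both were called lower there than in Foxa2+ CM, with Pdgfb at 3.16 and 3.84 CPM. In Flk1+ high cells against Foxa2- CM, at 16.3, 20.5 and 38.2 CPM, Pdgfb was 1.13 higher (adjusted p = 0.0813). Epas1, a hypoxia-inducible factor, fell by 2.26 against Foxa2+ CM (SE 0.60, adjusted p = 0.0240) and 3.29 against Foxa2- CM (SE 0.61, adjusted p = 0.00523), and Pcsk5 fell by 2.33 (SE 0.51, adjusted p = 0.0106) and 1.69 (SE 0.50, adjusted p = 0.0389). The adaptor Gab2 rose by 2.29 over Foxa2- CM (SE 0.55, adjusted p = 0.0173). The remaining genes named by rule were Plat, which rose in endoderm by 1.95 over Foxa2- CM (SE 0.57, adjusted p = 0.0294) at 2.23 and 10.03 CPM, and Pdgfrl, which rose there by 1.45 over Flk1+ high cells (SE 0.25, adjusted p = 0.00188). Kitl, which encodes stem cell factor, was at 36.1 and 101.1 CPM in endoderm, the group with the most Kit, and between 13.7 and 46.9 CPM elsewhere, and was not called against either CM group.

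The genes whose levels over the 10 samples were most like those of each member were ranked by Pearson's r of log2(CPM + 1) among 11518 genes. For Kdr they were Pwwp2b (r = 0.993), the VEGF co-receptor Nrp2 (0.992) and Apcdd1 (0.992). For Flt1 they were Stox2 (0.987), Stk35 (0.985) and Syne2 (0.985). For Flt4 they were Wnk4 (0.994), Galnt18 (0.994) and Gfi1b (0.993), a factor of blood formation. For Pdgfra they were Nod2 (0.993), Stbd1 (0.992) and Mfhas1 (0.991), and for Pdgfrb Cacna2d2 (0.985), Rasa4 (0.984) and Triobp (0.981). For Kit they were Crnde (0.953), Pkp2 (0.952) and Pdk1 (0.951). For Vegfa they were Pepd (0.985), Rcn1 (0.979) and Cdkn2a (0.974), and for Vegfc they included Hlx (0.990) and the cardiac factor Tbx20 (0.987). For Pdgfa they were Erfe (0.979), Hs3st3b1 (0.976) and Mdfi (0.974), and for Pdgfc Rasef (0.970), Zfp532 (0.950) and Pdzrn4 (0.926). These values describe 10 samples that fall into 4 groups, and no p was computed for them. Kdr and Pdgfra were used to sort those groups, so their lists in part reflect the gates.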

How the data were processed

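RNA from 10 sorted samples was sequenced by the authors as 50 nt single-end reads with an unstranded kit, aligned to mm10 with STAR 2.5.0a and cleared of duplicates with Picard. The authors deposited whole-number counts per gene from HTSeq 0.6.0, not normalized; their own tests used DESeq2. As the reads carry no molecular identifiers, duplicate removal caps the counts of strongly expressed genes. Kdr reached 0.979 counts per exonic base, the most of the 10. The floors cover counting error only, while the intervals come from the edgeR fit and include the spread between samples. Neither allows for this cap. Between 72.2% and 80.5% of counted reads per sample lay on genes, and the rest was left out.

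Symbols, positions and exonic lengths came from GENCODE M21 and matched 37607 of 38924 rows; the authors used an earlier annotation. Counts were normalized by TMM and tested with edgeR 4.0.16 (quasi-likelihood, default expression filter, Benjamini-Hochberg over all genes tested) in R 4.3.3. The CM groups were compared over their 6 samples and other pairs in 1 model of 10 samples, which shares the spread between groups. SE is the log2 fold change over the root of F. The test was checked on simulated data. Replicate pairs of a group differed by more than sampling noise (chi-square per degree of freedom 4.0 to 23.6). Alternatives were DESeq2 1.42.0, other size factors, no filter, a replicate block, other sample sets, a 2-fold limit and leaving out each replicate; leaving out both CM samples numbered 3 was added after seeing the data.

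The members and gene lists were chosen with earlier results of these data known. All 10 members are named. Of the pathway list, every gene called between the CM groups is named, and in each other comparison the 2 with the largest rise and the 2 with the largest fall. A few more (Nrp1, Adamts3, Kitl and the flanking genes) were chosen after their values were seen. The genes most like a member are the 3 with the highest r among genes whose mean was 5 CPM or more (1 is not reported here). Promoter sequences came from RefSeq. Pandas 2.3.3 and matplotlib 3.10.9 made tables and figures.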

Additional observations from a re-analysis of the deposited data

How the results depend on the processing

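Of 544 values of single members under alternatives, 474 kept direction and side of the threshold, 33 lost the call, 18 gained it and 19 changed sign, none of the last being called. The cause was not tested. Between Foxa2+ CM and Foxa2- CM, 2 members were called, against 4 with DESeq2, 0 with all 10 samples in 1 model, 1 at a 2-fold limit, 5 without both CM samples numbered 3 and 0 to 3 without each replicate. Over all genes the count was 990, against 288 in 1 model, 460 at 2-fold, 2632 without the samples numbered 3 and 234 to 1701 without each replicate. With the replicate number as a block, 5 members and 2556 genes were called; the block added Pdgfra, Vegfa and Flt1. The numbers could not be shown to pair the samples: deviations of same-numbered CM samples correlated at 0.534, 0.0961 and 0.628, and 5 of 6 CM samples correlated best with their own number. In the other comparisons the block changed 1 member's call, Vegfa in endoderm against Foxa2- CM (adjusted p = 0.0423).

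At a 2-fold limit, 3032 of 5660 genes were called in endoderm against Foxa2+ CM, 2748 of 4875 against Foxa2- CM, 1848 of 3685 in Flk1+ high cells against Foxa2+ CM, 1884 of 3492 against Foxa2- CM and 3098 of 5276 in endoderm against Flk1+ high cells, the last with 3 of 6 members. With only the 2 groups compared in the fit, the last comparison gave 2 members and 2675 genes, and Flk1+ high cells against Foxa2- CM gave 2159 genes. Without each replicate the gene counts were, in the same order, 3601 to 4892, 3015 to 4191, 2320 to 3402, 2140 to 3422 and 3932 to 5363, and the members called were 4 to 6 of 7 in Flk1+ high cells against Foxa2+ CM and 3 to 5 of 6 in endoderm against Flk1+ high cells.

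Changes of sign concerned values that were not called. Without each replicate, Foxa2+ CM against Foxa2- CM ranged from -1.24 to 0.16 for Flt1, -0.53 to 0.71 for Flt4 and -0.19 to 0.064 for Vegfc, and Flt4 was 0.30 without both CM samples numbered 3. In endoderm against Foxa2+ CM, Pdgfa ranged from -0.46 to 0.26 and Pdgfc from -0.14 to 0.082, and Pdgfc was -0.0017 with other size factors and -0.037 with no expression filter. In endoderm against Foxa2- CM, Flt4 ranged from -1.10 to 0.049 and was 0.043 without both CM samples numbered 3. Kit in Flk1+ high cells against Foxa2- CM ranged from -0.43 to 0.48, and Flt1 in endoderm against Flk1+ high cells from -0.31 to 0.68. The lowest value of a member rested on 25 counts. Neither depth nor the number of samples was varied to see which sets the width of the intervals.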
